A study of Mus musculus with 6 samples.

Results

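Ribosomal protein genes encode the protein parts of the cytoplasmic ribosome. They were taken here as all array probes whose annotated symbol begins with Rpl or Rps and a digit, or is Rplp0, Rplp1, Rplp2 or Rpsa, without the kinases of the Rps6k series. This gave 84 of the 25697 probes, for 66 of 16593 gene symbols: 53 probes and 40 symbols of the large subunit, 30 probes and 25 symbols of the small subunit, and 1 probe of Rps19bp1. Rps19bp1 encodes a binding partner of the ribosomal protein S19 and not a ribosomal protein, so it was kept apart from both subunits. Rps23rg1, a retroposed copy of Rps23, also bears a matching symbol.

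The samples were lenses of 6 C57BL/6J mice aged 18 weeks, each hybridised to 1 Illumina BeadChip, an array of beads that each carry 1 probe. In 3 mice both Fgf9 alleles carried Y162C, a substitution in the secreted growth factor FGF9 that the series title calls neomorphic, and the other 3 mice were wild type. The labels name no other allele or treatment, and 1 female and 2 males among the wild-type mice but 2 females and 1 male among the homozygotes.

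A ribosome has a small subunit, which reads the messenger RNA, and a large subunit, which joins amino acids and holds the exit tunnel for the new chain. Its proteins are needed in near equal amounts, and many of their messages share a pyrimidine tract at the 5′ end through which growth signals control their translation. In the lens, protein synthesis takes place mainly in the epithelium and in the outer, still differentiating fibre cells, while mature fibre cells lose their organelles and keep the crystallins made earlier.

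The promoters were searched for 3 short motifs. RefSeq promoters of the mouse assembly GRCm38.p6, each of 250 bases before and 50 after an annotated start, were found for 56 of the ribosomal symbols, in 67 windows. The motif CGGAAG, the core bound by transcription factors of the ETS family, stood on either strand in 41 of these windows (61.2%), against 16.9% of all 32851 promoter windows. By gene, 38 of the 56 had it. The motif CTTTCC, a pyrimidine run, stood on either strand in 32 of 67 windows (47.8%) against 26.6% of all, and TATAAA, the TATA box, in 6 of 67 (8.96%) against 13.6%. No motif contains another, matches of different motifs may share letters, and a match describes only the sequence. The 160 bases before the start are shown for 2 genes of each subunit whose array values are given below, with CGGAAG or its reverse complement in capitals: Rpl23, chr11:97782440-97782599, minus strand; Rpl38, chr11:114668420-114668579, plus strand; Rps6, chr4:86857368-86857527, minus strand; Rps15a, chr7:118116148-118116307, minus strand.
Rpl23: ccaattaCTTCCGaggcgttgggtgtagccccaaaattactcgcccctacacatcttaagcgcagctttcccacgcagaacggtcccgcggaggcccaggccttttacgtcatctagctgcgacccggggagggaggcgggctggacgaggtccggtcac
Rpl38: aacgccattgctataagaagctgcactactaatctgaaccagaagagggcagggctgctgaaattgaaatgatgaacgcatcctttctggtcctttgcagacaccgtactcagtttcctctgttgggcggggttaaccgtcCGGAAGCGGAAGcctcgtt
Rps6: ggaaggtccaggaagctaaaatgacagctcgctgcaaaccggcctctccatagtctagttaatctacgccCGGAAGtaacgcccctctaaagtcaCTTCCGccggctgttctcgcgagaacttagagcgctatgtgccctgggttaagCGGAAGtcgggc
Rps15a: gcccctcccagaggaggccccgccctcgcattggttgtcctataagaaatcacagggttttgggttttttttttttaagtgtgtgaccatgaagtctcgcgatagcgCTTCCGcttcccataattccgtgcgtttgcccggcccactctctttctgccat
The motif occurred 3 times in the printed stretch of Rps6, 2 times in that of Rpl38 and 1 time in those of Rpl23 and Rps15a. Both windows of Rpl3l, a paralog of Rpl3 whose known site of expression is striated muscle, held none of the 3 motifs.

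Mean signal was 191 to 200.4 on the wild-type arrays and 161.6 to 165.7 on the homozygous arrays, and 8713 to 9671 and 7816 to 8396 probes were above background (detection p-value under 0.05). The crystallins, which define the lens, were above background for 15 or 16 of 16 genes on every array. Of 21 photoreceptor markers 15 to 18 were also above background on each array, and of 17 markers of inner retina and glia 8 to 12 were on the wild-type and 2 to 4 on the homozygous arrays. Their summed normalized signals were 3020 to 15116 against 2935 to 5509 for photoreceptors, with the highest value on wild type replicate 2, and 814 to 1166 against 415.3 to 462.9 for inner retina and glia. Pigment cell markers summed to 515.5 to 1882 in the wild type and 304.2 to 471.3 in the homozygotes, and of 10 macrophage and leukocyte markers 5 to 7 were above background on the wild-type and 1 on the homozygous arrays. The 10 lens epithelium markers lay the other way in sum, with 2040 to 2453 in the wild type and 3395 to 3929 in the homozygotes. Of these 10, 4 to 6 were above background on the wild-type and 4 to 5 on the homozygous arrays. Only 4 were tested, with a median log2 fold change of 0.32 and 1 called gene. Of 8 tested markers of inner retina and glia 4 were called, with a median of -1.43 over the 8. Of 5 tested macrophage and leukocyte markers 1 was called, with a median of -0.61 over the 5. Of all tested genes 0.435% were called. Of 17 tested photoreceptor and 7 tested pigment cell markers 0 were called, with medians of -0.51 and -0.81. Of 15 tested crystallins 0 were called, with a median of 0.085. Most tested inner retina, glia, macrophage, leukocyte and pigment markers passed the detection filter only through the wild type, where they are high. The filter thus favoured lower homozygous values in these lists. Among the markers above background on 0 arrays were Opn1sw and Rp1 of photoreceptors, Snap25 of neurons, and Pax6 and Npnt of the lens epithelium. The part of these cell types in the ribosomal protein values was not tested. In bulk tissue, fewer cells of a type and less RNA per cell cannot be told apart. Wild type replicate 2 stood apart on the first principal component, and wild type replicate 3, labelled male, had Xist above background and Y-linked Eif2s3y not, so its label is in doubt and results are also given without each of these arrays.

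Ribosomal protein messages were among the strongest signals of the lens. Of the 100 brightest probes on an array, 28 to 30 were ribosomal, and of the 25 brightest, 6 to 8. Of the 84 probes, 66 (78.6%) were above background on at least 3 arrays and were tested, against 33.5% of all probes, and 63 of them were above background on all 6 arrays. These 66 probes stand for 57 symbols, of which 34 belong to the large and 22 to the small subunit, with Rps19bp1 as the other one. The probes of 9 symbols were not tested. Those of Rpl14, Rpl6, Rplp2, Rpl39l, Rps23rg1 and Rpsa were above background on 0 arrays, and those of Rpl17, Rpl22l1 and Rps23 on 1 or 2. Rpl14, Rpl6, Rplp2, Rpsa, Rpl17 and Rps23 encode regular parts of the ribosome, so a dim probe says nothing of the amount of protein. Of all 84 probes 13 were above background on 0 arrays. Rpl37 shows how far this depends on the probe: 1 of its probes read 13.57, 13.76 and 13.68 in the wild type and 13.44, 13.81 and 13.63 in the homozygotes, while its other 2 probes were never above background.

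Before normalization, ribosomal signals were lower on the homozygous arrays. The mean homozygous signal was below the mean wild-type signal for 56 of 57 genes, with a median ratio of 0.716 and a range of 0.541 to 1.00. In 51 of the 57 genes (89.5%) all homozygous signals were below all wild-type signals. Over all tested genes the median ratio was 0.858 and 53.7% lay fully below, so part of this gap is shared by the whole array. Ribosomal genes are also brighter than most. Among genes with a mean normalized log2 signal of 12 or more, the median ratio was 0.734 for 28 ribosomal genes and 0.826 for 50 other genes. All following values are log2 signals after background correction and quantile normalization, which gives every array the same distribution. Rplp1, a protein of the stalk that recruits elongation factors, shows a limit of that scale. Its probe was the brightest of all on each of the 6 arrays, so its normalized value was 14.94 on all of them and its change 0 by construction. Its deposited signal was 34844, 31655 and 32025 in the wild type and 29993, 29530 and 31185 in the homozygotes, so that before scaling all homozygous signals lay below all wild-type signals.

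The comparison asks whether ribosomal protein messages differ between lenses of mice with mutant and with wild-type FGF9. In limma's moderated test with Benjamini-Hochberg adjustment over all 8618 tested probes, 0 of the 66 ribosomal probes passed an adjusted p of 0.05, against 0.406% of all tested probes (0.139% higher and 0.267% lower in the homozygotes). At gene level, 0 of 57 passed, against 0.435% of all 6430 tested genes, where a gene with several probes is represented by its brightest. At an unadjusted p under 0.05 there were 8 genes of the 57, 7 lower and 1 higher in the homozygotes, against 9.14% of all genes (5.16% lower and 3.98% higher). The smallest adjusted p was 0.0739, reached by Rpl3l and by the brightest probe of Rpl23. Both passed the threshold on the same arrays with no filter on dim probes, with array weights and with the replicate number as a block.

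The log2 fold changes, homozygous minus wild type, lay mostly below 0 and were small. Of the 56 genes of both subunits 42 were below 0, 13 above 0 and Rplp1 at 0, against 50% of all tested genes below 0. The median was -0.13, a homozygous level of 0.913 times the wild-type level, against 0.00 for all tested genes. The quartiles of the ribosomal genes were -0.20 and -0.0053, and only Rpl3l differed by more than 0.5 in either direction. In 14 of the 56 genes (25%) the 3 homozygous values all lay below the 3 wild-type values, against 7.64% of all tested genes, and in 1 gene, Rpl23, all lay above, against 7.42%. This split moved with the scaling. With the authors' processed values 12 genes lay fully below and 6 fully above, with mean signal scaling 16 and 4, and with median scaling 17 and 2. Over all tested genes the shares below and above were 7.71% and 7.81%, 10.6% and 5.18%, and 8.43% and 11.3%. Without wild type replicate 2, 46 of the 57 genes including Rps19bp1 were below 0, and without wild type replicate 3, 40 were, against 42 with all arrays. These counts and medians describe the list, and the list as a whole was not tested.

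**Figure D1:**
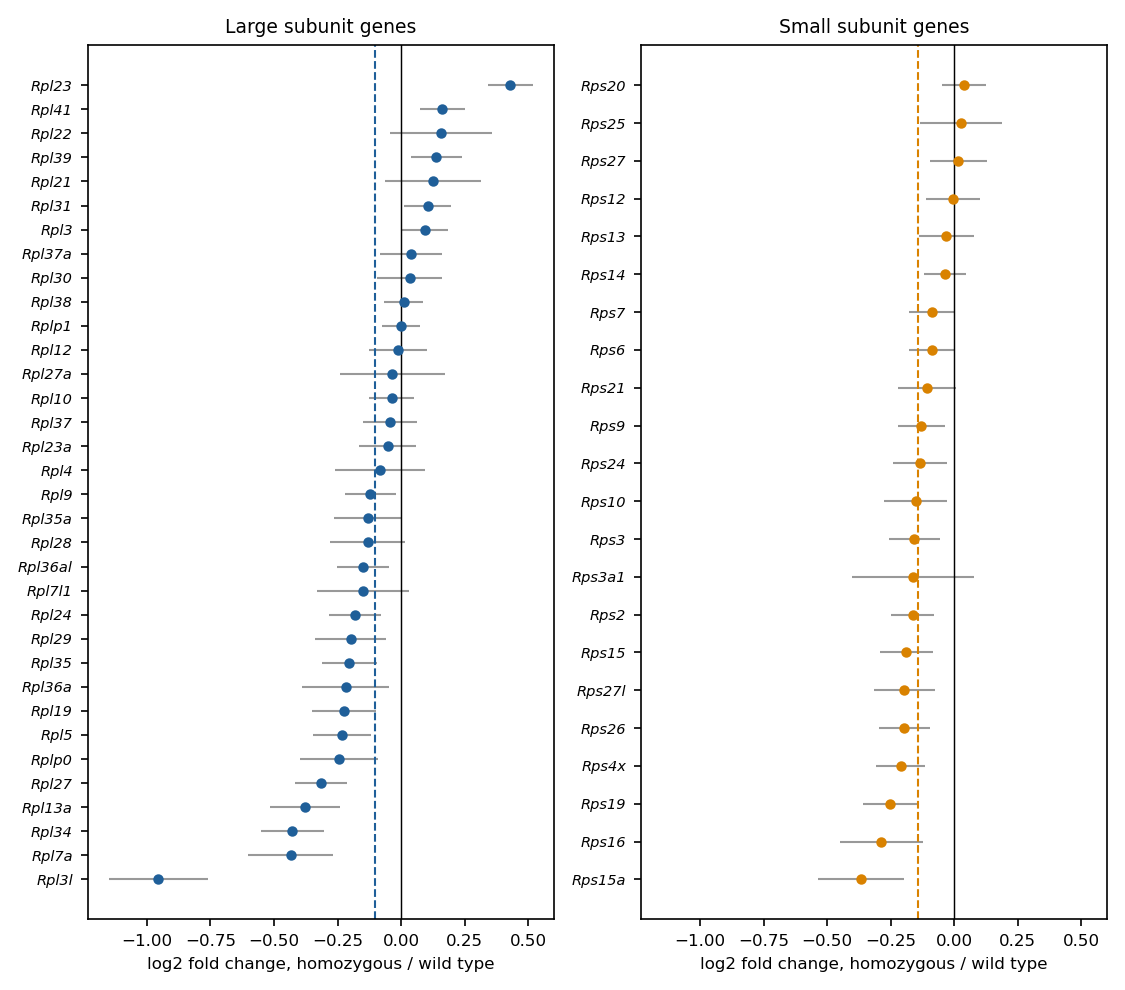
Log2 fold change (homozygous minus wild type) of each tested large subunit gene (left, 34 genes) and small subunit gene (right, 22 genes), with bars of 1 standard error from limma and a dashed line at the median of each subunit. Most genes lie between -0.25 and 0.25, with Rpl23 (0.43) and Rpl3l (-0.95) at the ends of the large subunit.

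Both subunits lay slightly lower in the homozygotes. The 34 large subunit genes had a median log2 fold change of -0.10, with 23 below 0 and 10 above 0. The 22 small subunit genes had a median of -0.14, with 19 below 0 and 3 above 0. The large subunit was the more varied, from -0.95 to 0.43, while the small subunit ran from -0.37 to 0.04. Of the large subunit genes 8 (23.5%) had all homozygous values below all wild-type values and 1 (2.94%) had all above. For the small subunit these counts were 6 (27.3%) and 0. Over all tested genes 7.64% lay fully below and 7.42% fully above, and 50% had a log2 fold change below 0.

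On single arrays the median deviation of the small subunit genes from their 6-array means was 0.038, 0.077 and 0.056 in the wild type and -0.061, -0.035 and -0.11 in the homozygotes. For the large subunit genes it was 0.00065, -0.012 and 0.049 in the wild type and -0.075, -0.030 and -0.042 in the homozygotes. In both subunits the 3 homozygous arrays were thus below the 3 wild-type arrays, with the closest approach in the large subunit, between wild type replicate 2 and homozygous replicate 2. The small minus the large subunit was 0.037, 0.089 and 0.0072 in the wild type and 0.013, -0.0049 and -0.070 in the homozygotes. These differences overlapped between the groups. Their means were 0.045 in the wild type and -0.021 in the homozygotes, with a pooled SD between arrays of 1 group of 0.043. The subunits' median log2 fold changes, a different measure, differed by 0.043.

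**Figure D2:**
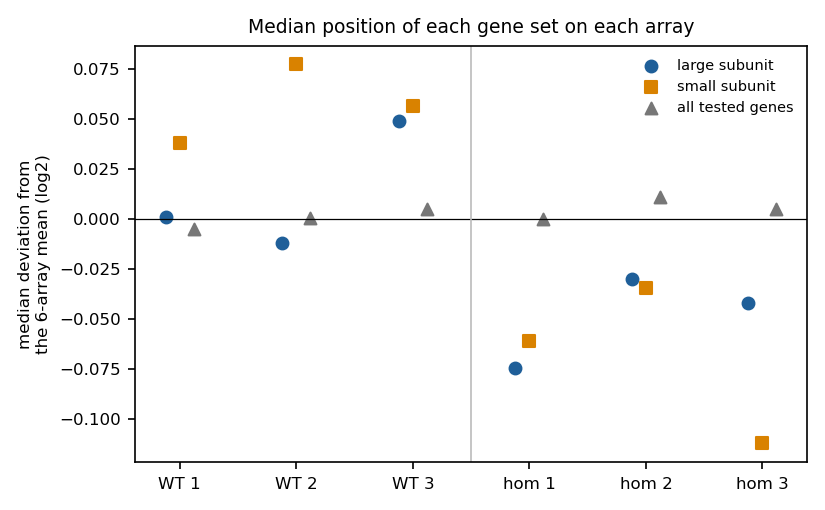
Median deviation from the 6-array mean, in log2 units, of the large subunit genes (circles), small subunit genes (squares) and all tested genes (triangles) on each array. The small subunit lies between 0.038 and 0.077 on wild-type arrays and between -0.11 and -0.035 on homozygous arrays, and all tested genes stay within 0.02 of 0.

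The fold changes were also described by brightness. Because quantile normalization sets the brightest values by rank, genes were split at a mean log2 signal of 12, a value chosen after the data were seen. The 28 ribosomal genes at or above it had a median log2 fold change of -0.049, while the 50 other genes in that range had a median of 0.036. The 28 ribosomal genes under it had a median of -0.17, against 0.00 for all 6352 tested genes under it. Within each of these ranges the genes were not matched for brightness. Groups did not overlap, with the homozygotes lower, in 4 of the 28 bright genes (14.3%). This share was 4% for the 50 other bright genes and 7.69% for all tested genes in that range, which include the 28. Among the 28 dimmer genes it was 10 (35.7%), against 7.64% of all tested genes under 12. With the homozygotes higher, the groups did not overlap in 3.57% of the bright ribosomal genes, against 14% of the 50 others. Of the dimmer ribosomal genes 0 lay fully higher, against 7.38% of all tested genes under 12. The difference between bright and dimmer members was not tested.

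**Figure D3:**
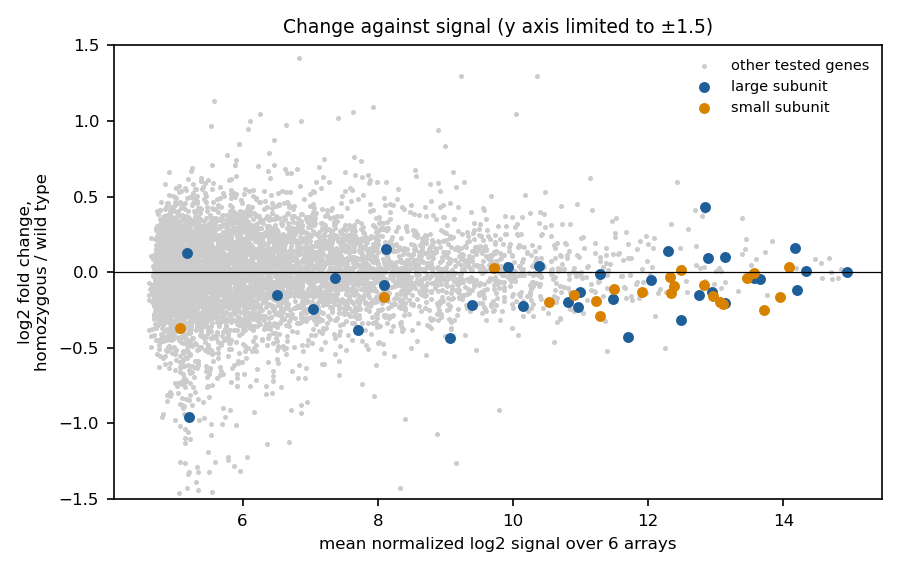
Log2 fold change (homozygous minus wild type) against mean normalized log2 signal for large subunit genes, small subunit genes and all other tested genes (grey). The y axis is limited to 1.5 in each direction, which leaves out 20 genes, 0 of them ribosomal, and above a log2 signal of 10 the ribosomal genes run from -0.43 (Rpl34) to 0.43 (Rpl23), on both sides of 0.

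Rpl23, a large subunit protein that also binds the p53 regulator MDM2, was the one member with all homozygous values above all wild-type values after quantile normalization. With mean signal scaling Rpl38, Rpl41 and Rplp1 also lay fully above, with median scaling Rpl41, and with the authors' processed values these 3 genes, Rpl3 and Rps14. The deposited signal of the brightest Rpl23 probe was 7678, 6968 and 6745 in the wild type and 6545, 7625 and 7312 in the homozygotes, with overlap and a ratio of means of 1.00. After normalization this brightest probe read 12.69, 12.58 and 12.58 in the wild type and 12.98, 13.10 and 13.06 in the homozygotes. After that step the groups did not overlap. The log2 fold change was 0.43, or 1.35-fold (SE 0.088, n = 3 per group, adjusted p from limma = 0.0739), the 38th smallest p of 6430 genes. By rank among all probes of an array, which no scaling changes, this probe stood 68th, 72nd and 72nd in the wild type and 52nd, 45th and 47th in the homozygotes. Its other probes did not repeat the difference in full. The second read 11.12, 11.03 and 10.71 in the wild type and 11.27, 10.96 and 11.31 in the homozygotes, with overlap and a log2 fold change of 0.23 (adjusted p from limma = 0.652). The third, dimmer probe had a log2 fold change of -0.12 (adjusted p from limma = 0.848), and a further probe was above background on 0 arrays. All 4 are annotated to the same transcript. With the mean over its tested probes in place of the brightest, the value for Rpl23 was 0.18 (adjusted p from limma = 0.585). The adjusted p of Rpl23 passed in 4 of 22 other settings, at 0.00801 with no filter on dim probes, 0.0196 with array weights, 0.0306 without wild type replicate 1 and 0.0422 with the replicate number as a block, and it was 0.449 with sex as a covariate and without wild type replicate 3.

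Rpl3l, the striated muscle paralog of Rpl3, had the lowest fold change of all members. It read 5.64, 5.56 and 5.83 in the wild type and 5.06, 4.66 and 4.45 in the homozygotes, a log2 fold change of -0.95 (SE 0.20, adjusted p from limma = 0.0739). The groups did not overlap, but the signal lay near the detection limit: all 3 wild-type arrays detected the probe, and 1 of the 3 homozygous arrays did. It thus passed the filter through the wild type, and its fold change and p rest on homozygous values mostly not above background. Its size followed the background correction, at -0.49 with an offset of 50 and -0.37 with no correction. The adjusted p passed in 3 of 21 other settings, at 0.016 with array weights, 0.0165 with the replicate block and 0.0353 with no filter, and was 0.387 without homozygous replicate 3. Rpl3 itself, which shapes the peptidyl transferase centre, had a log2 fold change of 0.09 on a bright probe.

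Among the other large subunit genes, the lowest log2 fold changes were those of Rpl7a, Rpl34 and Rpl13a. Rpl7a read 9.69, 9.04 and 9.11 in the wild type and 8.76, 8.83 and 8.95 in the homozygotes, a log2 fold change of -0.43 (adjusted p from limma = 0.449), which was -0.23 without wild type replicate 1. That array held the high value, and the other wild-type values lay within 0.4 of every homozygous value. Rpl34 read 11.81, 12.18 and 11.74 in the wild type and 11.48, 11.58 and 11.38 in the homozygotes, a log2 fold change of -0.43 (adjusted p from limma = 0.281), which was -0.27 without wild type replicate 2. Rpl13a, which in human cells can leave the ribosome to silence inflammatory messages, read 7.76, 7.99 and 7.93 in the wild type and 7.46, 7.57 and 7.51 in the homozygotes, a log2 fold change of -0.38 (adjusted p from limma = 0.423). Rpl27 read 12.77, 12.46 and 12.71 in the wild type and 12.35, 12.32 and 12.32 in the homozygotes, a log2 fold change of -0.31 (adjusted p from limma = 0.355). In these 4 genes the groups did not overlap, and none passed the test.

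**Figure D4:**
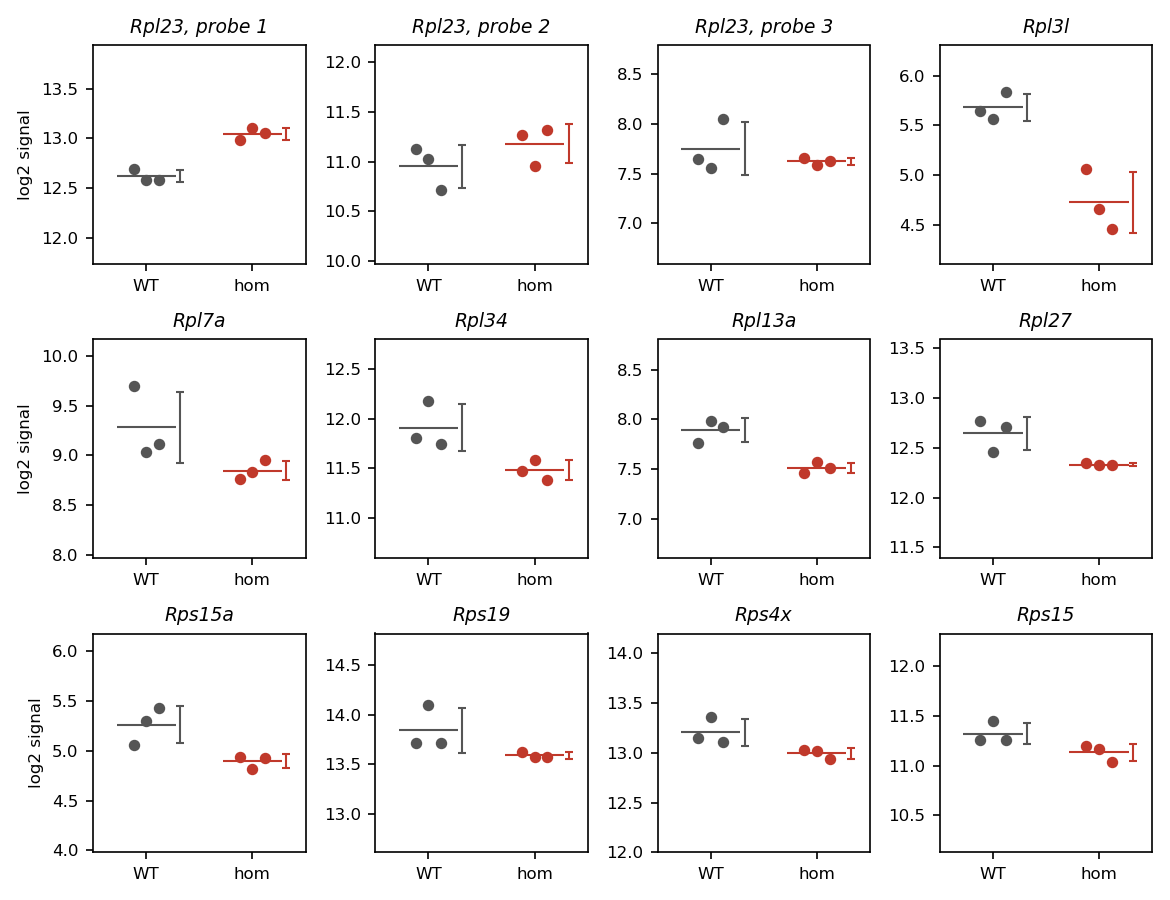
Normalized log2 signal of each array (points), with the group mean (line) and SD (bar, n = 3), for the 3 detected probes of Rpl23 and for 9 further members in which the groups do not overlap. Every panel spans the same range, and probe 1 of Rpl23 is the panel in which all homozygous points lie above all wild-type points.

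Proteins of the stalk and of the 5S particle gave no called change. Rplp0, the base of the stalk and a common reference gene, read 7.16 on all 3 wild-type arrays and 7.10, 6.91 and 6.74 in the homozygotes, a log2 fold change of -0.25 (adjusted p from limma = 0.661). Rpl5, which carries the 5S RNA into the large subunit, had a log2 fold change of -0.23, again without overlap of the groups. Rpl10, which joins late in assembly and lets the subunits meet, stood at -0.037, and Rpl38, whose loss in mice disturbs the pattern of the axial skeleton, at 0.0097 on its brighter and 0.18 on its dimmer probe. Rpl19, another common reference gene, read 10.11, 10.52 and 10.16 in the wild type and 10.04, 10.03 and 10.04 in the homozygotes. The homozygous values of Rpl19 were lower and nearly equal, and its log2 fold change was -0.22 (adjusted p from limma = 0.631), which was -0.097 without wild type replicate 2. Rpl41, a very short peptide of the ribosome, and Rpl39, which lines the exit tunnel, came next to Rpl23 by p among genes above 0. Rpl41 read 14.05, 14.02 and 14.19 in the wild type and 14.36, 14.19 and 14.19 in the homozygotes, with a log2 fold change of 0.16 (adjusted p from limma = 0.621). Rpl39 read 12.14, 12.22 and 12.31 in the wild type and 12.22, 12.37 and 12.49 in the homozygotes, with a log2 fold change of 0.14 (adjusted p from limma = 0.708). Both genes had overlapping groups.

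In the small subunit the lowest log2 fold changes among genes without overlap were those of Rps15a, Rps19, Rps4x and Rps15. Rps15a read 5.06, 5.30 and 5.43 in the wild type and 4.94, 4.81 and 4.93 in the homozygotes, a log2 fold change of -0.37 (adjusted p from limma = 0.565) on a dim probe. Rps19, mutated in the human disorder Diamond-Blackfan anaemia, read 13.71, 14.10 and 13.71 in the wild type and 13.63, 13.57 and 13.57 in the homozygotes. Its log2 fold change was -0.25 (adjusted p from limma = 0.531), and -0.12 without wild type replicate 2, the array with the high value. X-linked Rps4x read 13.15, 13.36 and 13.10 in the wild type and 13.03, 13.02 and 12.93 in the homozygotes, a log2 fold change of -0.21 (adjusted p from limma = 0.55). Rps15, which sits near the decoding site, had a log2 fold change of -0.19 (adjusted p from limma = 0.621). Rps2, part of the path by which messenger RNA enters, had one of -0.16 and also no overlap.

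Among small subunit genes with overlapping groups, Rps16 had a log2 fold change of -0.29 (adjusted p from limma = 0.634). Rps26 had one of -0.20 (adjusted p from limma = 0.604). Several others lay closer to 0. Rps6, the substrate of the S6 kinases that growth factor signals activate, read 12.46, 12.39 and 12.43 in the wild type and 12.39, 12.25 and 12.37 in the homozygotes. The groups overlapped, with a log2 fold change of -0.088 (adjusted p from limma = 0.798). Rps20, Rps25 and Rps27 were the 3 small subunit genes above 0, at 0.038, 0.026 and 0.015. Rps3a1 had the widest spread between wild-type arrays of all members, with values of 8.51, 7.61 and 8.37 and an SD of 0.485, so that its log2 fold change of -0.16 (SE 0.24) says little.

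Paralogs were set beside their partners where both were measured. Rps27l, a paralog of Rps27 that p53 induces, read 10.42, 10.73 and 10.74 in the wild type and 10.31, 10.53 and 10.45 in the homozygotes, a log2 fold change of -0.20 (adjusted p from limma = 0.656), beside 0.015 for Rps27. Rpl22 had a log2 fold change of 0.16 that turned to -0.074 without wild type replicate 2, and its paralog Rpl22l1 was above background on 2 of 6 arrays. Rpl36al stood at -0.15 beside -0.22 for Rpl36a, and Rpl7l1, a relative of Rpl7, at -0.15. Single arrays moved these values, to -0.017 for Rpl7l1 without wild type replicate 1 and -0.055 for Rpl36al without wild type replicate 3. No difference between partners was tested. Rps19bp1 had a log2 fold change of 0.18 (adjusted p from limma = 0.82).

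Of 8 genes with more than 1 tested probe, 5 had probes whose log2 fold changes differed in sign. The widest spreads after Rpl23 were those of Rpl21, at 0.13 and -0.18, Rpl29, at -0.20 and 0.10, and Rps9, at -0.13 and 0.05. The probes of Rps3 gave -0.16 and -0.20 and those of Rps24 gave -0.14 and -0.22. The spread between probes of 1 gene thus ran from 0.046 for Rps3 to 0.55 for Rpl23, beside a median log2 fold change of -0.13 for the ribosomal genes. Some of these probes were dim. The Rpl21 probe at -0.18 was above background on 2 wild-type arrays and 1 homozygous array. The Rps24 probe at -0.22 was so on 3 and 1, and thus passed the filter through the wild type. Ribosomal protein genes also have many processed pseudogenes of near-identical sequence, which such probes may bind.

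Genes that act with the ribosome gave 0 calls as well, in lists of 1 to 64 tested genes. Of all tested genes 0.435% were called and 50% lay below 0, so 0 calls in lists of this size say little. Fau, which encodes the ribosomal protein S30 in a fusion and lies outside the symbol rule, had a log2 fold change of -0.29 (adjusted p from limma = 0.592) with overlapping groups. Of 53 tested ribosome biogenesis genes 0 passed and 38 (71.7%) were below 0, with a median of -0.050 that ran from -0.13 to -0.015 over the other settings. Their smallest p values lay on the other side, with log2 fold changes of 0.43 for Ebna1bp2 and 0.49 for Rrp36 (adjusted p from limma = 0.370 and 0.433). Of 64 tested genes of the mitochondrial ribosome 0 passed and 36 (56.25%) were below 0, with a median of -0.032 that ran from -0.12 to -0.0078. Mrps6 stood at 0.31 and Mrps16 at -0.35 (adjusted p from limma = 0.423 and 0.546).

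Translation factors gave 0 calls too, beside the same shares over all tested genes, 0.435% called and 50% below 0. Of 19 tested initiation factors 0 passed, with a median of -0.032 that ran from -0.14 to 0.025 over the other settings, and the factors of smallest p were Eif4h at -0.15 and Eif3d at 0.14. Of 8 genes listed as elongation and termination factors 0 passed and 6 (75%) were below 0, with a median of -0.079 that ran from -0.17 to -0.031. In this list Eef1e1, an elongation factor by name only, stood at -0.38 and the ribosome rescue factor Pelo at 0.43. Of 16 other messages with a 5′ pyrimidine tract 0 passed, with a median of -0.016 that ran from -0.054 to 0.095, and Vim and Eif3f stood at 0.24 and 0.19. The largest change in that list was that of Eef2, at 1.05 (adjusted p from limma = 0.634). Its groups overlapped, with wild-type values of 10.91, 7.61 and 10.06, the low one on wild type replicate 2. Of 16 genes of mTOR and S6 kinase signalling, the pathway that drives translation of these messages, 0 passed, with a median of 0.014 that ran from -0.080 to 0.069. Rheb, its small GTPase activator, stood at -0.25 and Mtor at 0.28. No difference between these medians and the -0.13 of the ribosomal protein genes was tested.

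Fold changes were also set beside the promoter motifs, as a description. The 34 tested genes with CGGAAG in a window had a median log2 fold change of -0.098, and the 14 with a window but without it had one of -0.18. For CTTTCC the medians were -0.15 over 25 genes and -0.14 over 23.

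The position of both subunits below 0 was kept under every setting tried, while its size was not. With the replicate block, no intensity trend and robust variance the medians could not move, because these settings leave the fold changes as they are. Over 22 other settings the median of the large subunit lay between -0.11 and -0.044 and that of the small subunit between -0.21 and -0.11. The small subunit median was the lower of the pair in each setting, by 0.012 to 0.094. The median of all tested genes lay between -0.050 and 0.030 in these settings. In the values processed by the authors, 37 of the 57 genes were below 0, the fewest of any setting.

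**Figure D5:**
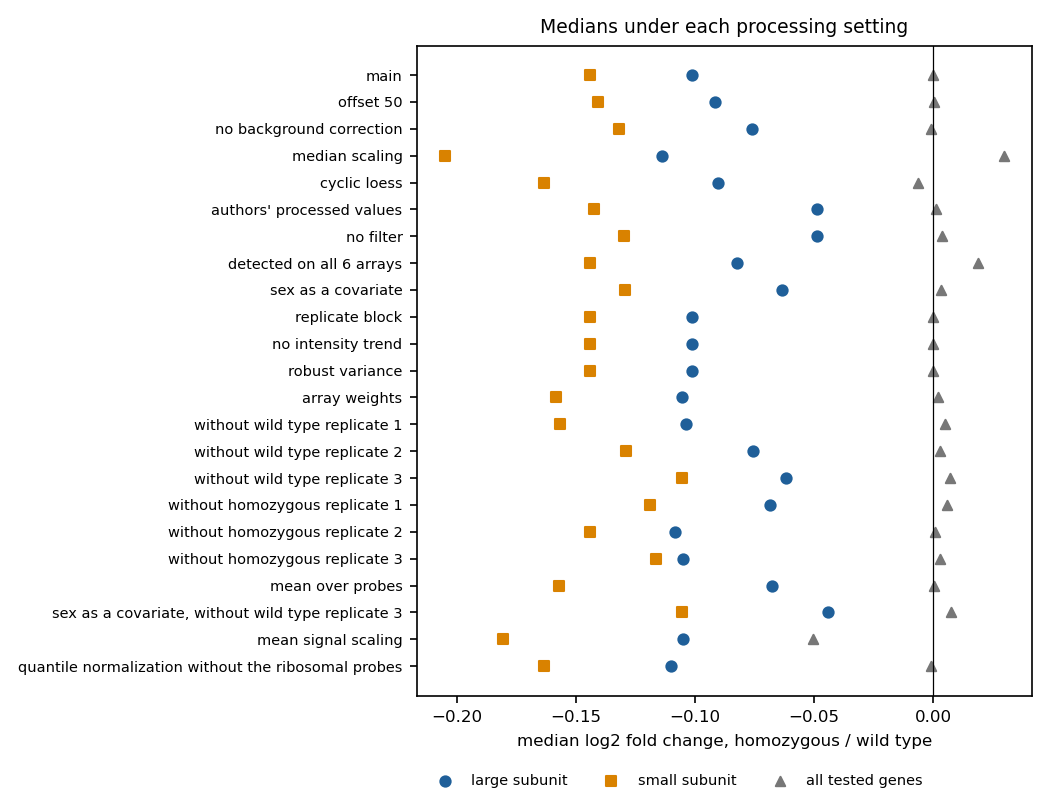
Median log2 fold change (homozygous minus wild type) of the large subunit genes, the small subunit genes and all tested genes under the main processing and each of 22 other settings. Both subunit medians are below 0 in every line, between -0.21 and -0.044.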

How the data were processed

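Total RNA of the lens of 6 mice was measured, 1 array per mouse, per the labels. The authors' deposited signal is a linear intensity per probe, marked as not normalized, with a detection p-value beside it, per the file headers. A second deposited table holds the authors' processed intensity, by a method not given in the sources used here. Array medians in it were 4.39 to 4.41, and about 28.0% of its values were below 0, as after background subtraction, so it was used as an alternative on a log2 scale after adding 44.5. The submitters' processing notes name GenomeStudio 2011.1 as a tool.

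Signals were background-corrected in limma 3.58.1 (R 4.3.3) by normexp, which estimates background through the deposited detection p-values (offset 16), then quantile normalized and log2 transformed. The offset pulls dim fold changes toward 0. Tested were probes detected (p-value under 0.05) on 3 or more arrays, with lmFit and eBayes (intensity trend), two-sided, with Benjamini-Hochberg adjustment over all tested probes. On simulated data with 8618 probes, 97% of 2-fold changes were recovered at the threshold, with 17 false calls, and changes as small as most reported here were not simulated.

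Symbols came from the platform annotation (23978 probes with 1 symbol, 0 with several, 1719 with none), and all 84 member probes matched a RefSeq gene identifier. Named genes were chosen by rule: per subunit up to 4 without overlap in each direction, per direction the 3 of smallest p, reference genes, paralogs, genes whose probes differ and, in each other list, the 2 of smallest p. Rpl3, Rpl5, Rpl10, Rpl36a, Rpl37, Rps14, Rps2, Rps20, Rps25, Rps3, Rps24, Rps3a1, Rps16, Rps26 and Eef2 were added after their values were seen. The members, lists and alternatives were chosen with earlier results of these data known. Promoters are from RefSeq, GRCm38.p6. The effect of 22 alternatives is given at the end. Replicates were separate animals, and their number limits the precision.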

Additional observations from a re-analysis of the deposited data

How the results depend on the processing

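Over 22 other settings, of which 3 were chosen after seeing the data (sex with wild type replicate 3 left out, mean signal scaling, and quantile normalization set by the other probes), both subunit medians stayed below 0. The replicate block, no intensity trend and robust variance could not move these medians. The large subunit median moved from -0.10 to -0.049 with the authors' processed values and with no filter, -0.063 with sex as a covariate, -0.068 with the mean over probes, -0.044 with sex and without wild type replicate 3, and -0.11 to -0.062 on leaving out single arrays. The small subunit median moved from -0.14 to -0.21 with median scaling, -0.18 with mean signal scaling, -0.11 with sex and without wild type replicate 3, and -0.16 to -0.11 on leaving out single arrays. The small minus large difference moved from -0.043 to -0.091 with median scaling, -0.094 with the authors' processed values and -0.090 with the mean over probes, and ran from -0.053 to -0.012 on leaving out single arrays, the latter without homozygous replicate 3. The cause was not tested. Rpl23 and Rpl3l gave 2 called probes, and 2 called genes, with no filter, with array weights and with the replicate block, and Rpl23 alone gave 1 without wild type replicate 1, so leaving out single arrays gave 0 to 1 called members. The number of all called probes was 35, 125 with the replicate block, 69 with array weights, 23 with an offset of 50, 22 with no background correction, 22 with sex, 20 with no trend, 11 with detection on all arrays, 6 with sex and without wild type replicate 3, and 98, 40, 17, 15, 12 and 12 without wild type replicates 1 to 3 and homozygous replicates 1 to 3. Deviations from the group means of same-numbered arrays correlated at 0.20, 0.19 and -0.030, so the numbers were not taken to pair the samples, and the block changed no other ribosomal call. Groups did not overlap in 15 genes (14 lower, 1 higher in the homozygotes), 18 with the authors' processed values (12 and 6), 19 with median scaling (17 and 2) and 20 with mean signal scaling (16 and 4). This count was not run in the other settings.

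Of 549 values of the 25 named genes in other settings 527 kept their direction and their side of the threshold and 15 changed sign, in 4 genes, Rps27 and Rpl38 (0.015 and 0.0097 in the main processing) and Rpl22 and Rpl21 (0.16 and 0.13). With the replicate block, no intensity trend, robust variance or another detection filter, the fold change of a probe was the same by construction. Rps27 was -0.034 with median scaling, -0.0079 with cyclic loess, -0.056 with sex, -0.012 with array weights, -0.0023 with sex and without wild type replicate 3, -0.0049 with mean signal scaling, -0.017 with quantile normalization set by the other probes, and -0.092, -0.029 and -0.011 without wild type replicate 2 and homozygous replicates 1 and 2. Leaving out single arrays gave a range of -0.092 to 0.086 for Rps27, -0.0055 to 0.028 for Rpl38 and -0.074 to 0.30 for Rpl22. Rpl38 was -0.00051 with array weights and -0.0055 and -0.0013 without wild type replicate 2 and homozygous replicate 2. Rpl22 was -0.074 without wild type replicate 2, and Rpl21 -0.025 with the mean over probes. Dim probes such as those of Rpl3l and Rps15a are limited by signal over background.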
